A study of Mus musculus with 18 samples.

Results

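The genes of the cytosolic ribosomal proteins were examined for summits of NFIA and NFIB, 2 transcription factors of the nuclear factor I (NFI) family, as medulloblastoma, a cerebellar tumor, forms in mice. They were chosen by symbol, as the autosomal protein-coding genes of the RefSeq table (GRCm38.p6, the assembly of mm10) named Rpl or Rps with a digit, without the Rps6k kinases, and with Rpsa, Rplp0, Rplp1 and Rplp2. This gave 87 of 20665 autosomal protein-coding genes, of which 40 encode proteins of the large subunit, 30 of the small subunit and 3 of the stalk. A further 13 are paralogs or copies, and 1, Rps19bp1, encodes a binding partner of Rps19 that is not itself a ribosomal protein. CUT&Tag was used, an assay that cuts and tags chromatin with a transposase where an antibody has bound its target. The 18 libraries came from 3 stages, with 3 preparations per stage and 1 NFIA and 1 NFIB library of 100000 cells per preparation. At postnatal day 7 the cells were granule neuron progenitors (GNPs), which give rise to the granule neurons of the cerebellum. Hyperplasia was taken at day 28 and tumors from adults, and all cells were isolated on a Percoll gradient. The series describes a genetically engineered mouse model, and the labels give neither strain, genotype nor the driver of the tumors, nor whether the preparations came from separate animals. The spread behind every p-value, between preparations or, for the 2 targets, between libraries, may therefore be technical. Stage and age changed together and cannot be told apart. Nor can stage and date in comparisons with tumors, since no tumor library has a title date of another stage. A cell line that the design text mentions is not among these libraries.

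Ribosomal proteins assemble with ribosomal RNA into the small subunit, which reads the message, and the large subunit, which joins amino acids. A stalk of acidic proteins on the large subunit recruits translation factors. Their genes are active in nearly every cell, and their short promoters usually lack a TATA box and start transcription at a cytosine within a tract of pyrimidines, the TOP motif, through which growth signals control translation of the messages. NFI proteins bind as dimers to a palindrome of TTGGC and its reverse complement GCCAA with a spacer between them, and more weakly to a single half-site. In the cerebellum they are known for their part in the maturation of granule neurons.

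A gene was counted as carrying an end summit where 1 of the 30000 highest-scoring autosomal summits of a library lay within 1 kb of either end of the gene. Summits were ordered by their score, a −log10 p-value. The members with the best-ranked end summits were the small-subunit genes Rps19 and Rps21 and the large-subunit genes Rpl37, Rpl27 and Rpl13a, while Rpl6 and Rpl37a, also of the large subunit, had no end summit in any library. Their RefSeq promoters (GRCm38.p6) are given 5′ to 3′ from 250 bases before to 10 bases after the start site, with each NFI half-site (TTGGC or GCCAA) in capitals, to show the proximal promoters of the genes highest and lowest in rank. The summits of Rpl27 lay mostly beyond the 3′ end of this window, and some of those of Rps19, Rps21 and Rpl13a beyond its 5′ end.
Rps19 (chr7:24884342-24884601, + strand): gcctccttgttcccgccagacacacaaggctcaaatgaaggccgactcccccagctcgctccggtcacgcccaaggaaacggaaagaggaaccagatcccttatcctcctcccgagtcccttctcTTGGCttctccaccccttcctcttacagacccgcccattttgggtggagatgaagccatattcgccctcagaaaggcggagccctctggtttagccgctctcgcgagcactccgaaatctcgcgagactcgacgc
Rpl37 (chr15:5116363-5116622, + strand): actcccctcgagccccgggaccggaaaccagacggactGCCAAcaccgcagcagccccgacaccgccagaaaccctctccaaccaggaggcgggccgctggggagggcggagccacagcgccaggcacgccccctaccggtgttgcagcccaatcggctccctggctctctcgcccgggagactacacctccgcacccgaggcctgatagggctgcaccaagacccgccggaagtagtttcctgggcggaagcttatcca
Rps21 (chr2:180257129-180257388, + strand): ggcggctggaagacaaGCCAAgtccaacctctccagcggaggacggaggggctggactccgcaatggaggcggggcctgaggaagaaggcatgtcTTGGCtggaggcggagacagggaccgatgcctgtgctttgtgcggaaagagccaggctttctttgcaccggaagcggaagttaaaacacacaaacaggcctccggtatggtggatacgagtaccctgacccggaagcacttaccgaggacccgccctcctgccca
Rpl27 (chr11:101441995-101442254, + strand): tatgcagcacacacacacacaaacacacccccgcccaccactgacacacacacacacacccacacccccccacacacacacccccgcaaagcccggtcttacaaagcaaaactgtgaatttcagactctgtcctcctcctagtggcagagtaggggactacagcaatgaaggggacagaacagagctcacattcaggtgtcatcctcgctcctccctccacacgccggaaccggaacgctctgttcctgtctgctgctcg
Rpl13a (chr7:45128736-45128995, - strand): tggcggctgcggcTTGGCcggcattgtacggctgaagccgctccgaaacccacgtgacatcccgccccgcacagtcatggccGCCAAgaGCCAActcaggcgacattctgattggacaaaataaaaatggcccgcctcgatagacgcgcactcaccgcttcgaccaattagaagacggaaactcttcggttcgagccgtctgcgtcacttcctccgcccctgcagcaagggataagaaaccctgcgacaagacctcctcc
Rpl6 (chr5:121204251-121204510, + strand): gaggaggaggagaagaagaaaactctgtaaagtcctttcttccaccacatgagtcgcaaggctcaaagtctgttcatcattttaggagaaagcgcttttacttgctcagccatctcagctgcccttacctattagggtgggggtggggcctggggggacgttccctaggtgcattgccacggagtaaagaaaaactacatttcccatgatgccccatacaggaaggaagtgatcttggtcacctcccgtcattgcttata
Rpl37a (chr1:72711010-72711269, + strand): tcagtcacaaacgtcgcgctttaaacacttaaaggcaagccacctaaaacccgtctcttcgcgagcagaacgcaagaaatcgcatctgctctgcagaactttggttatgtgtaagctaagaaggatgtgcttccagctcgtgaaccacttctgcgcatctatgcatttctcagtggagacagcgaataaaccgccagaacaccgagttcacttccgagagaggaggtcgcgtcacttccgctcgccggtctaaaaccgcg

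The Rps19 promoter held 1 half-site, whose first base lay 125 bases before the start, and the Rpl37 promoter held 1 at 212 bases. Rps21 had 2, at 234 and 155 bases, and Rpl13a had 3, at 237, 168 and 161 bases. Rpl27, whose summits ranked among the best, had none in this window, and neither had Rpl6 nor Rpl37a. A match describes the letters of the window and is not shown to be a bound site. Among the 66 members in the promoter table, 33 (50%) held a half-site in the 300 bases from 250 before to 50 after the start, against 48.4% of 16457 genes. Of the 14 members with an end summit in all 18 libraries, 9 are in the promoter table. Of these 9, 8 held a half-site, against 25 of the other 57. No such split was made for all genes, so that it cannot be called particular to the members. No member promoter held the full palindrome with a spacer of 5 bases, which occurred in 7 of the 16457 genes (0.0425%).

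Other motifs, searched on both strands, were more common or rarer in the members than in all genes. CCGGAAG, a site of ETS factors, was in 24 of 66 member promoters (36.4%), against 12.3% of all promoters, and AAGATGGC, a site of the factor YY1, was in 6 (9.09%), against 3.21%. TATAAA was in 7 (10.6%), against 13.5%, CCAAT, the site of NF-Y, in 20 (30.3%), against 39.1%, and CGCATGCG, the core of the NRF1 site, in 2 (3.03%), against 2.59%. GCCAA and CCAAT overlap by 4 letters, so that a site for both can share its bases. The annotated start base was a C in 24 members (36.4%), against 13.8% of all genes, and C or T made up 62.9% of the first 10 bases on average, against 46.7%. These are properties of the annotation and not of the libraries.

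End summits were also counted at markers of the cell types a preparation could hold. These counts measure neither expression nor the purity of the cells. Of 7 granule lineage genes (such as Atoh1, Zic1 and Pax6), 6 had an end summit in at least 9 of the 18 libraries, with a mean share over the libraries of 64.3% in GNPs, 73.8% in hyperplasia and 73.8% in tumors. The 3 oligodendrocyte genes had shares of 5.56%, 27.8% and 27.8%, the 3 vessel genes 0%, 5.56% and 0%, and the 3 microglia genes (Csf1r, Aif1, Cx3cr1) were at 0 in all libraries. All genes had shares of 36.5%, 35.7% and 33.4%. The libraries held 49948 to 385466 summits with scores from 2, so that absence of a summit means that none is listed. Read depth is unknown. The second NFIA library of hyperplasia stood apart. It had the lowest share of genes with an end summit, 28.3% against 30.6 to 38.7% in the other libraries, and 20.4% of its top summits had the same score as the last one kept. Target names are also in doubt. The title, which was used here, and the list name give different targets for 6 of the 18 libraries.

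Ribosomal protein genes carried end summits more often than protein-coding genes as a whole. All 87 members together had a share below that of each other housekeeping list described here. The genes of the subunits and the stalk, taken as 1 list, had a share within the range of those lists. On average 52.6% of the 87 members had an end summit (lowest library 37.9%, highest 65.5%), against 35.2% of all genes (28.3 to 38.7%), and the members were above all genes in each of the 18 libraries. The share was 57.8% for the large subunit, 59.6% for the small subunit, 72.2% for the 3 stalk genes and 18.8% for the 13 paralogs and copies. The 73 genes of the subunits and the stalk together reached 59.1%. In lists of other housekeeping genes it was 67.9% for 68 translation factors, 61.1% for 38 subunits of complex I of the respiratory chain, 59.8% for 41 genes of ribosome production, 57.4% for 39 proteasome genes and 56.3% for 78 mitochondrial ribosomal proteins. The copies were set apart from the members once the gene table was seen, and the other lists were not trimmed in this way. These shares are descriptions with no test, since the members were chosen as a list.

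**Figure D1:**
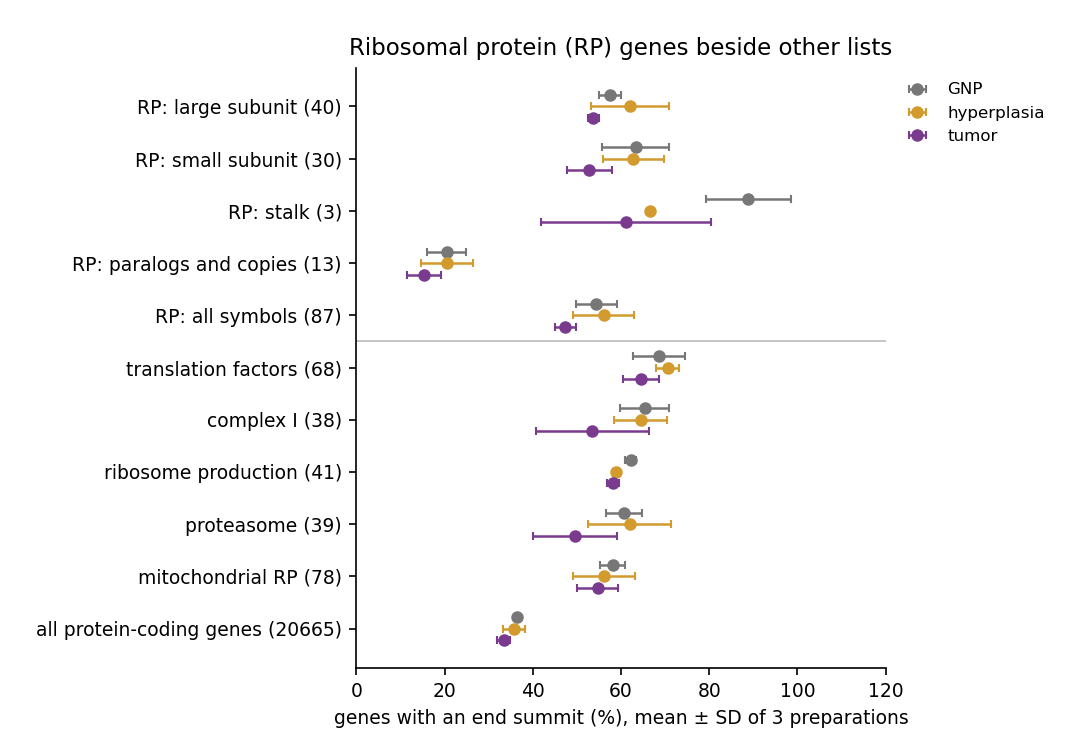
Share of genes with an end summit (percent, horizontal axis) in groups of ribosomal protein (RP) genes and in other lists, with the number of genes in brackets. Points are means and bars SDs of 3 preparations per stage. The subunits lie at 52.8 to 63.3%, near the other housekeeping lists and above all protein-coding genes at 33.4 to 36.5%, and the paralogs and copies lie at 15.4 to 20.5%.

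Member summits lay further down their lists in the median than those of all genes. Where listed, the best end summit of a member had a median rank of 14030 of 30000, against 11026 for all genes. The median was 8807 for translation factors, 9724 for ribosome production and 10807 for mitochondrial ribosomal proteins. It was 11452 for complex I and 13928 for the proteasome. Rank strength was defined as log2((30000 + 1) / rank of the best end summit) and 0 with none. By its mean over the libraries, 7 members (8.05%) were in the top 10% of all genes, which is near that share. Of the 87 members, 14 had an end summit in all 18 libraries, 25 in 12 to 17, 19 in 6 to 11, 18 in 1 to 5 and 11 in none. For all genes, 12.9% had one in all 18 libraries and 41.1% in none, against 16.1% and 12.6% of the members. Members were thus listed often and far down, as were the proteasome genes. Most members, 62, were listed in some libraries and missing from others. With all summits kept in place of the top 30000, 33 members were listed in all 18 libraries and 4 in none.

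**Figure D2:**
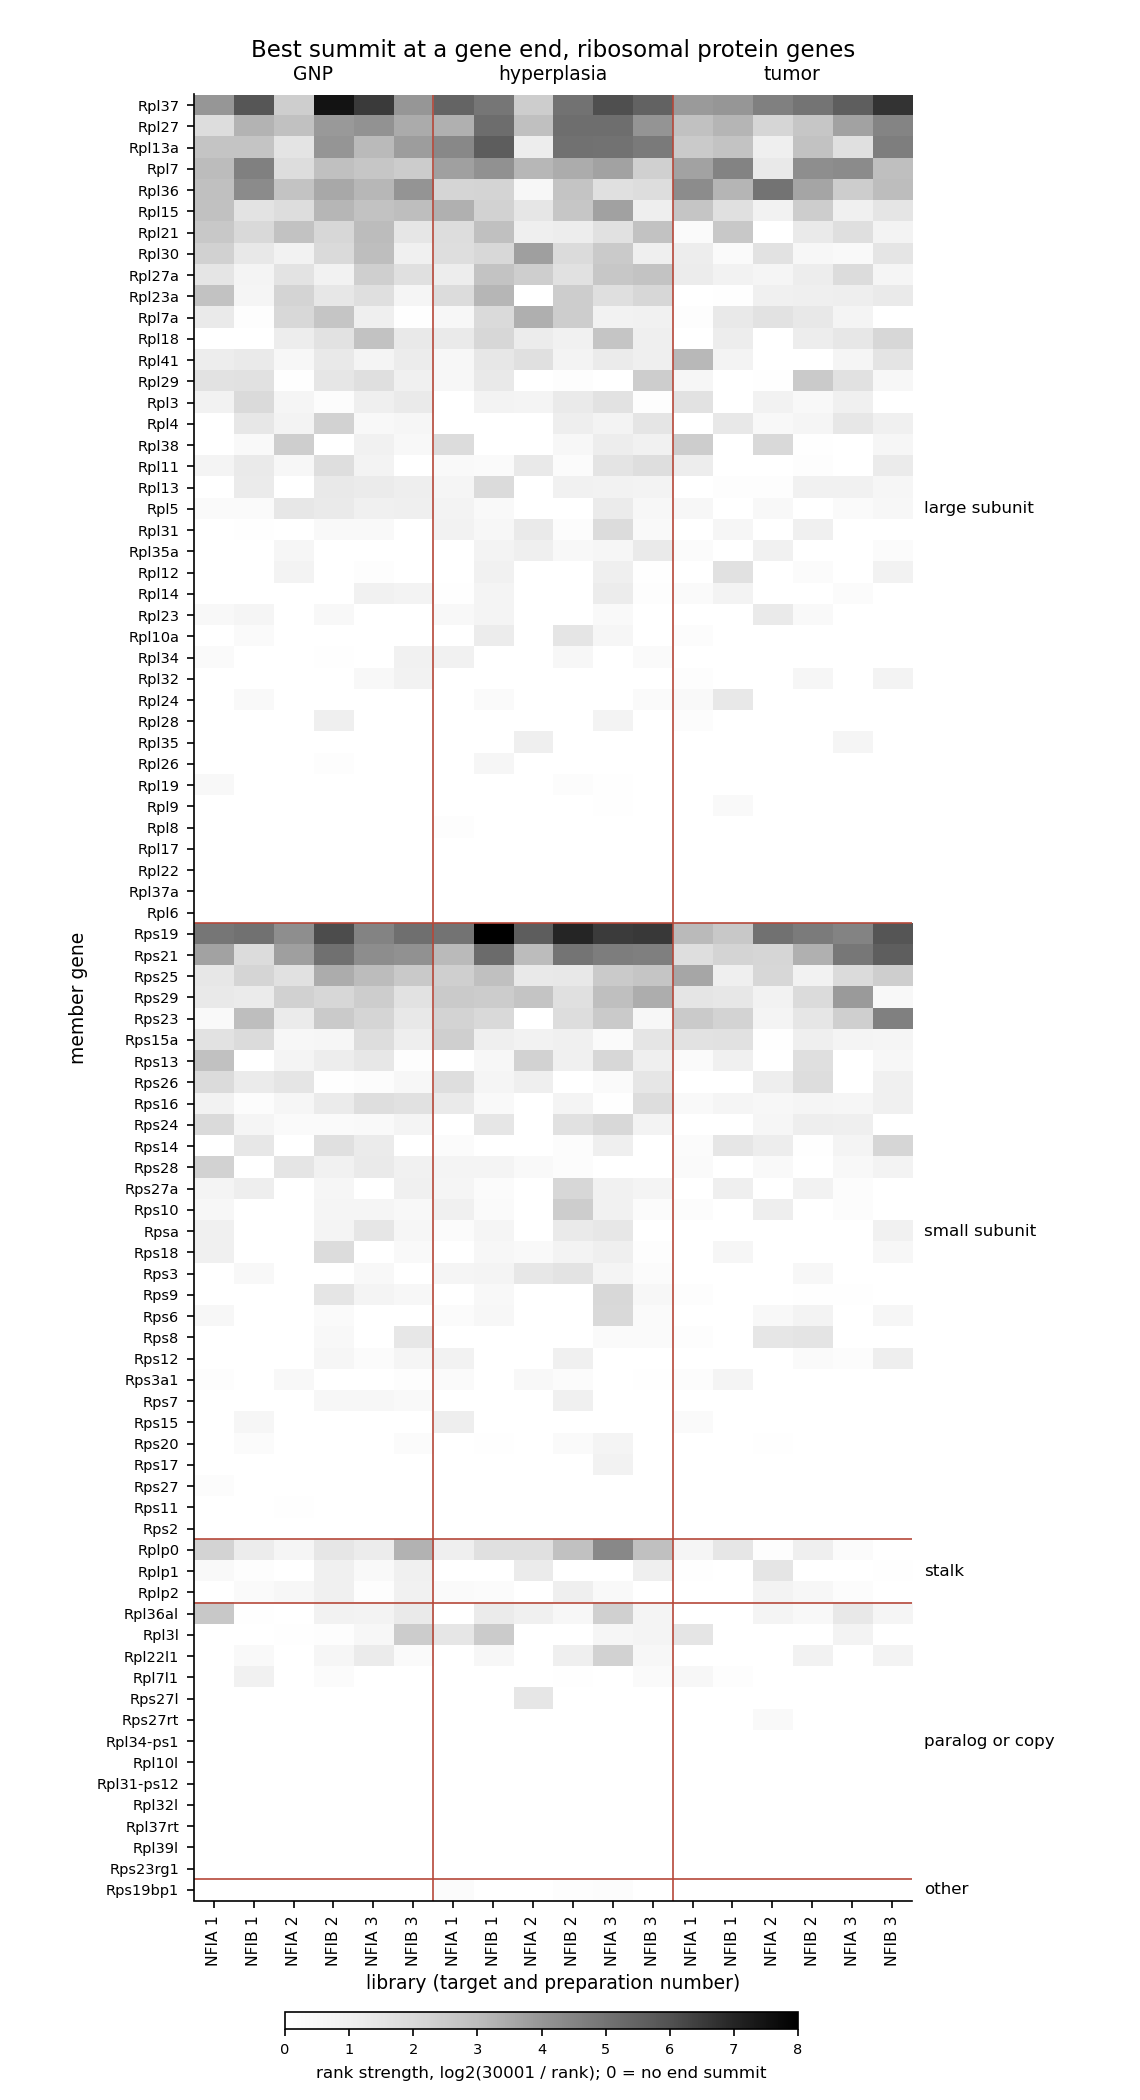
Rank strength (grey scale, log2, 0 for no end summit) of 85 of the 87 members in 18 libraries, ordered by stage, preparation and target in columns and by group and mean rank strength in rows. Dark rows in all stages are few (Rps19, Rpl37, Rps21, Rpl27, Rpl13a and Rpl7 the darkest), and the lower part of each group is blank in most libraries.

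Rps19, which encodes a small-subunit protein needed to mature ribosomal RNA and is mutated in human Diamond-Blackfan anemia, had the highest mean rank strength, 5.25 ± 1.32 (SD over 18 libraries), with 302 of all genes above it. Its ranks in the 6 GNP libraries were 430 at best, 963.5 in the median and 1637 at worst. In hyperplasia they were 118, 327.5 and 948, and in tumors 509, 1204 and 4949. All 3 stages overlapped in single libraries, and the 2 worst ranks were those of the first tumor preparation. The summits lay between 309 and 170 bases before the start site, 226.5 in the median, upstream of the half-site at 125 bases.

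Rpl37, a zinc-binding protein of the large subunit, followed with a mean rank strength of 4.95 ± 1.36 and ranks of 172 (best), 1208 (median) and 5666 (worst) in GNPs, 456, 811.5 and 5655 in hyperplasia and 295, 1102.5 and 2005 in tumors. The stages covered much the same range. Its summits lay 199 to 115 bases before the start, and an end of Card6 lies within 1 kb. For Rps21 the ranks were 891, 1958 and 8248 in GNPs, 799, 1186.5 and 3680 in hyperplasia and 621, 4850.5 and 8775 in tumors, and the summits lay 296 to 53 bases before the start. An end of Rps21 lies within 1 kb of an end of Cables2, so that these summits cannot be given to one gene alone.

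Rpl27, mutated in some patients with Diamond-Blackfan anemia, had ranks of 1734, 2966 and 8605 in GNPs, 830, 1327.5 and 4004 in hyperplasia and 1328, 3736 and 6891 in tumors. Unlike the others it had its summits at the start itself, from 12 bases before to 107 after, 25 after in the median, and no half-site in the window shown. Rpl13a, which as a free protein silences translation of inflammatory messages in human cells, had ranks of 1857, 4027.5 and 10415 in GNPs, 598, 996.5 and 13864 in hyperplasia and 1173, 4817 and 14456 in tumors. Its worst hyperplasia rank was that of the library that stood apart. Rpl7, a large-subunit protein that binds RNA, had 1226, 4396 and 8441 in GNPs, 1717, 2579.5 and 6102 in hyperplasia and 1318, 1988 and 12183 in tumors. Among the other 8 genes with an end summit in all libraries were Rpl36, Rpl15, Rps25, Rps29, Rpl30, Rpl27a and Rps15a, with median ranks from 3907 (Rpl36) to 14785.5 (Rps15a).

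Of the stalk, Rplp0, the scaffold on which the stalk is built and a common control in expression assays, was listed in 17 libraries, with ranks of 3089, 12274.5 and 19106 in GNPs, 1429, 6743 and 14479 in hyperplasia and 11143, 19046 and 27931 in the 5 tumor libraries that listed it. Rplp1 and Rplp2, the acidic proteins that hang from it, were listed in 10 and 12 libraries. Rplp1 was in 5 of 6 GNP libraries, 2 of 6 in hyperplasia and 3 of 6 in tumors, and Rplp2 in 5, 4 and 3. Rpsa, a small-subunit protein also known as a laminin receptor, was in 4, 4 and 1. None of the 3 reached a better rank than 10665 in any library.

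The 11 members with no end summit fell into different kinds. Rpl6, Rpl22, Rpl37a, Rpl17 and Rps2 encode proteins of the ribosome itself. Rpl10l and Rpl39l encode paralogs used in the testis, and Rpl37rt, Rpl32l, Rpl31-ps12 and Rps23rg1 are copies of other members. With all summits kept, Rpl37a was listed in 14 libraries, Rpl6 in 11 and Rpl37rt in 8, and Rpl10l, Rpl17, Rpl39l and Rps2 stayed without any. For Rps2 and Rpl22 the window missed an annotated start site. That of Rps2 lies 1942 bases inside its RefSeq span, and top summits within 1 kb of it were listed in 17 libraries with a median rank of 7475. Rpl22, whose protein takes part in lymphocyte development in mice, has 2 annotated start sites, and summits at them were listed in 17 libraries at a median rank of 9277. The same held for Rps27l, a paralog of Rps27 induced by p53, with an end summit in 1 library and start-site summits in 17 (median rank 5571), and for Rpl19, with 3 and 11. These genes were singled out after their values were seen.

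Most member summits lay just upstream of a start site. In the 56 members with an end summit and a RefSeq start site, 597 best end summits were measured, and 58.6% lay in the 500 bases upstream of the nearest start, against 48.7% for all genes. The median position was 89 bases before the start (quartiles 187 before and 70 after), against 42 before (179 before and 121 after) for all genes. The bin with most member summits, 200 to 150 bases before the start, held 15.2% of them and 8.69% of those of all genes. By stage the median was 90 bases before the start in GNPs, 80 in hyperplasia and 106 in tumors. The summits come from the same few genes in many libraries and are not independent.

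**Figure D3:**
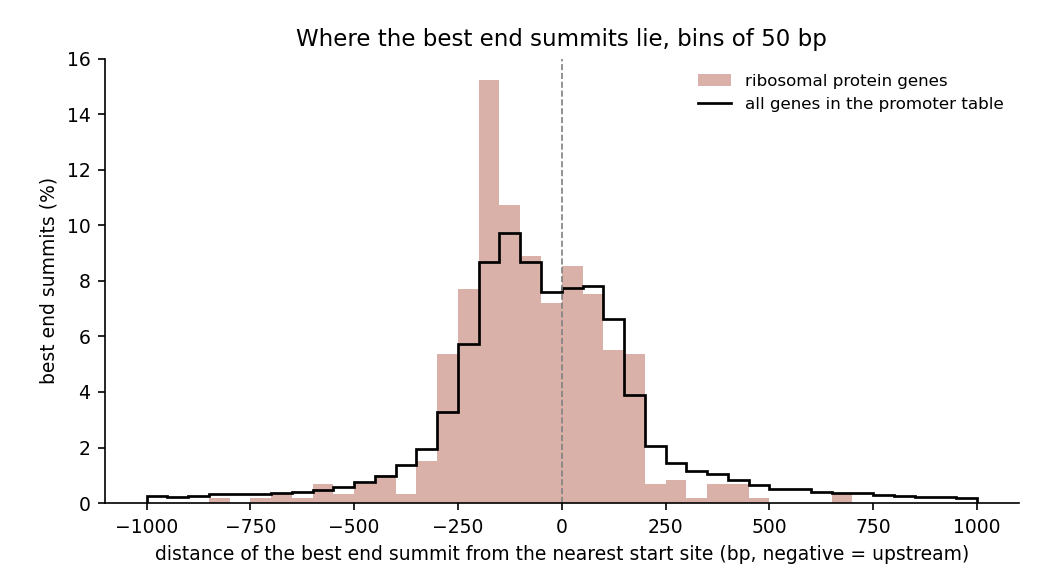
Distribution of the distance (bp, horizontal axis, negative upstream) from the best end summit to the nearest start site, as the share of best end summits per bin of 50 bp, for ribosomal protein genes (filled) and all genes of the promoter table (line), all 18 libraries pooled. The members peak at 15.2% in the bin from 200 to 150 bp upstream, and both sets fall off beyond 300 bp.

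Not every end summit lay at an annotated start site of the member. In 9.05% of cases the best end summit lay more than 1 kb from a start site, against 11.1% for all genes, and in 5 members this was the median position. They were Rpl3l, the paralog of heart and skeletal muscle (3799 bases after its start, beside Msrb1), Rpl4 (5997 bases, beside Snapc5 and Zwilch), Rpl41, the smallest ribosomal protein (1527.5 bases, beside Zc3h10), and Rpl18 and Rpl19. For Rpl18 and Rpl19 it lay 2761.5 and 3925 bases before their start sites, by the upstream end of RefSeq spans that begin ahead of those sites. Whether it marks another start of the same gene was not tested. Another protein-coding gene had an end within 1 kb of an end of 30 members (34.5%), against 25.6% of all genes, and of 6 of the 14 members listed in all libraries (42.9%). Member genes were short, with a median of 3183 bases against 17491, and 28 of them (32.2%) contained a small nucleolar RNA gene, the guides of ribosomal RNA modification that lie in their introns, against 1.72% of all genes. Of the 14 members listed everywhere, 4 (28.6%) did. How reads matching several places were treated is not stated, and the RefSeq table holds 315 pseudogenes under these symbols.

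By stage, the share of members with an end summit was 54.4% ± 4.61 in GNPs, 56.1% ± 6.93 in hyperplasia and 47.3% ± 2.39 in tumors (SD, n = 3 preparations), and that of all genes was 36.5% ± 0.154, 35.7% ± 2.57 and 33.4% ± 1.41. The GNP preparations were at 50, 54.0 and 59.2%, the hyperplasia preparations at 56.9, 48.9 and 62.6% and the tumor preparations at 45.4, 50 and 46.6%. The tumor values lay below those of GNPs apart from a tie at 50%, and overlapped with those of hyperplasia. Without the second NFIA library of hyperplasia, its preparation was the NFIB library alone, while the others were means of both targets. The hyperplasia share was then 59.8% ± 2.87, and the tumor preparations lay below it without overlap. The same held for all genes, with 36.9, 37.2 and 37.4% in hyperplasia against 31.8, 34.5 and 33.9% in tumors. The proteasome list (49.6% ± 9.45 in tumors and 60.7% ± 4.12 in GNPs) and complex I (53.5% ± 12.8 and 65.4% ± 5.48) had lower tumor means too, and mitochondrial ribosomal proteins had 54.7% ± 4.64 and 58.1% ± 2.89. Whether fewer end summits reflect less binding at these genes or more top summits elsewhere cannot be told apart from ranks.

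**Figure D4:**
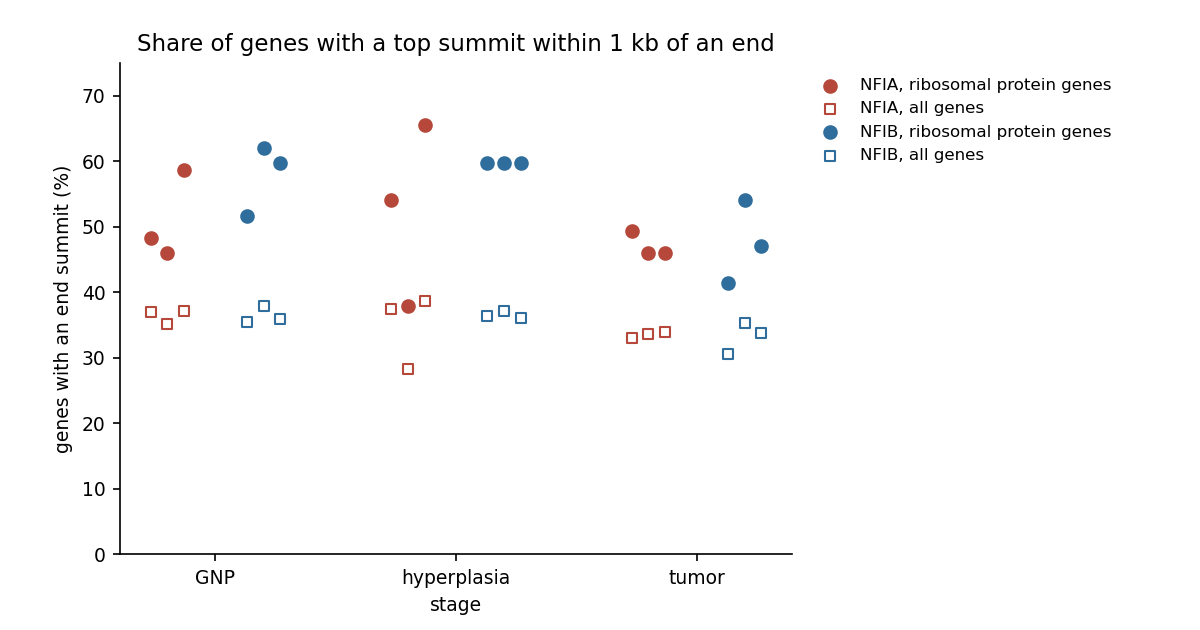
Share of genes with an end summit (percent) in each of 18 libraries by stage, with NFIA in red and NFIB in blue, filled circles for ribosomal protein genes and open squares for all protein-coding genes. The circles lie above the squares in every library, and the lowest circle (37.9%) is the second NFIA library of hyperplasia.

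Between hyperplasia, the stage before the tumor, and normal GNPs, no member had a difference that passed the test. In rank strength 58 members could be tested, those with an end summit in at least 6 libraries, and 0 were called in a limma fit over all genes (Benjamini-Hochberg adjusted p under 0.05), against a background of 0.255% of 8625 genes. At an unadjusted p under 0.05 there were 8, as were 11.4% of all genes. Fitted differences were positive in 36 members and negative in 22, with a median of 0.07, against 0.09 for all genes. Rank strength in all hyperplasia preparations lay above all GNP preparations in 8 members (13.8%), against 9.16% of all genes, and below in 3 (5.17%), against 6.27%. In the number of end summits per preparation, 52 members with a mean of at least 1 were tested and 0 called (0.132% of 7597 genes), with 5 at an unadjusted p under 0.05, as were 5.98% of all genes.

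Rps19 had rank strengths of 6.49, 6.33 and 6.52 in hyperplasia, against 4.96, 5.16 and 4.81 in GNPs, without overlap (difference 1.47, SE 0.69, limma adjusted p = 0.417). Rpl13a had 5.02, 3.08 and 4.92 against 2.74, 2.77 and 3.44 in GNPs, with overlap (1.36, SE 0.60, limma adjusted p = 0.367). In the other direction stood Rpl36, a large-subunit protein, with 2.16, 1.62 and 1.75 in hyperplasia against 3.61, 3.14 and 3.59 in GNPs (−1.60, SE 0.56, limma adjusted p = 0.228). Its ends lie within 1 kb of those of Lonp1 and Micos13, mitochondrial genes. Rps28, beside Kank3 and Ndufa7, and Rpl29 had differences of −0.79 and −0.51 (limma adjusted p = 0.324 and 0.714). In a fit with title date as a term, for the stages that share dates, 0 of 60 members were called in rank strength, beside 0.477% of 8809 genes, and 1 of 54 in end summits, Rpl31, beside 0.816% of 7842 genes.

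Between tumors and normal GNPs, Rps14 was the 1 member that passed the test, by its number of end summits and not by rank strength. This small-subunit gene (chr18, 60774596 to 60778546), whose loss is linked to a human myelodysplastic syndrome, had 2 end summits in each tumor preparation, against 1 in each GNP preparation and 1 in each hyperplasia preparation. The difference was 0.74 (SE 0.06) on the log2(summits + 0.5) scale in both comparisons, with a limma adjusted p of 0.00545 against GNPs and 0.006 against hyperplasia. It was the 1 member called of 52 tested in each, beside a background of 0.342% of genes for tumors against GNPs and 0.329% for tumors against hyperplasia. Each summit was 1 library that listed the gene, since all 6 tumor libraries did, against 3 of 6 in GNPs and 3 of 6 in hyperplasia. The ranks in tumors were 6977 at best, 15988.5 in the median and 28620 at worst, and those in the libraries that listed it were 14454, 25497 and 26453 in hyperplasia and 9355, 11751 and 13114 in GNPs. The counts did not vary within a stage, which sets the small SE. Without the second NFIA library of hyperplasia, the NFIB library alone stood for that preparation. The limma adjusted p was then 0.332 against GNPs and 0.535 against hyperplasia. When all summits of each library were counted, at equal totals, the differences were −0.50 and −0.45. The medians of all genes in that setting were −0.53 and −0.24.

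In rank strength 0 of 58 members were called for tumors against GNPs, beside 0.684% of all genes, with 2 at an unadjusted p under 0.05, as were 13.6% of all genes. The fitted difference was negative in 44 members and positive in 14, with a median of −0.21, against −0.16 for all genes. With all summits kept, which moves the median of all genes to 0.30, it was positive in 52 and negative in 25 of 77 members, with a median of 0.24. All tumor preparations lay below all GNP preparations in 5 members (8.62%), Rpl21, Rpl23a, Rpl30, Rpl34 and Rps28, against 14.3% of all genes, and above in 0, against 5.59%. The member with the lowest difference was Rpl21, a large-subunit protein, with 1.44, 0.62 and 1.27 in tumors against 2.28, 2.41 and 2.21 in GNPs (−1.19, SE 0.51, limma adjusted p = 0.270). Rplp0 had 1.04, 0.58 and 0.12 in tumors against 1.68, 1.03 and 2.23 in GNPs, with overlap (−1.06, SE 0.53, limma adjusted p = 0.370). The highest differences were small, 0.58 for Rpl7, 0.55 for Rps23 and 0.30 for Rpl12 (limma adjusted p from 0.642 to 0.724), and that of Rps23 was −0.03 without the third tumor preparation.

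Between tumors and hyperplasia no member passed in rank strength (0 of 58, beside 0.591% of all genes), with 11 at an unadjusted p under 0.05, as were 16.4% of all genes. With preparation number as a block, 4 of 58 members were called, Rps19, Rplp0, Rpl13a and Rpl36, beside 374 of 8625 genes. Differences were negative in 46 members and positive in 12, with a median of −0.35, against −0.25 for all genes, so that members and all genes shifted the same way. All tumor preparations lay below all hyperplasia preparations in 13 members (22.4%), against 15.6% of all genes, and above in 2 (3.45%), Rpl36 and Rps14, against 4.1%. Among the 13 were Rplp0 and Rpsa, and Rpl23a, Rpl27a, Rpl30, Rpl31 and Rpl34 of the large subunit. Rps3, Rps10, Rps19, Rps20 and Rps29 of the small subunit were also among them.

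Rplp0 had rank strengths of 1.04, 0.58 and 0.12 in tumors, against 1.37, 2.25 and 3.64 in hyperplasia (difference −1.84, SE 0.53, limma adjusted p = 0.0764). Rps19 had 2.85, 4.91 and 5.20 in tumors against 6.49, 6.33 and 6.52 in hyperplasia (−2.13, SE 0.69, limma adjusted p = 0.118), with the first tumor preparation far below the other two. Rpl13a had 2.64, 1.92 and 3.17 in tumors against 5.02, 3.08 and 4.92 in hyperplasia, with overlap (−1.76, SE 0.60, limma adjusted p = 0.130). Rpl36 stood opposite, with 3.74, 4.29 and 2.70 in tumors against 2.16, 1.62 and 1.75 in hyperplasia (1.73, SE 0.56, limma adjusted p = 0.115). Its tumor values overlapped with those of GNPs (3.61, 3.14 and 3.59). Rps23 and Rps14 had differences of 0.81 and 0.70 (limma adjusted p = 0.447 and 0.288).

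Without the hyperplasia library that stood apart, its preparation was the NFIB library alone, while the others were means of both targets. In that fit 3 of 58 members were called, all lower in tumors, beside a background of 2.74% of 8531 genes. Among them were Rpl13a (−2.42, limma adjusted p = 0.0199) and Rplp0 (−2.03, 0.0350), and Rps19 came to −2.35 (0.0542). Without the whole second hyperplasia preparation 0 of 55 members were called, with 14 calls among 8394 genes. Without the first hyperplasia preparation Rplp0 was the 1 member called of 56 (−2.36, limma adjusted p = 0.0463), beside 0.529% of 8313 genes. In the other housekeeping lists no gene was called higher in any stage comparison, and 6 calls were lower, those of Psmb6, Psmc5 and Psmb9 of the proteasome and the mitochondrial ribosomal protein gene Mrps7.

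**Figure D5:**
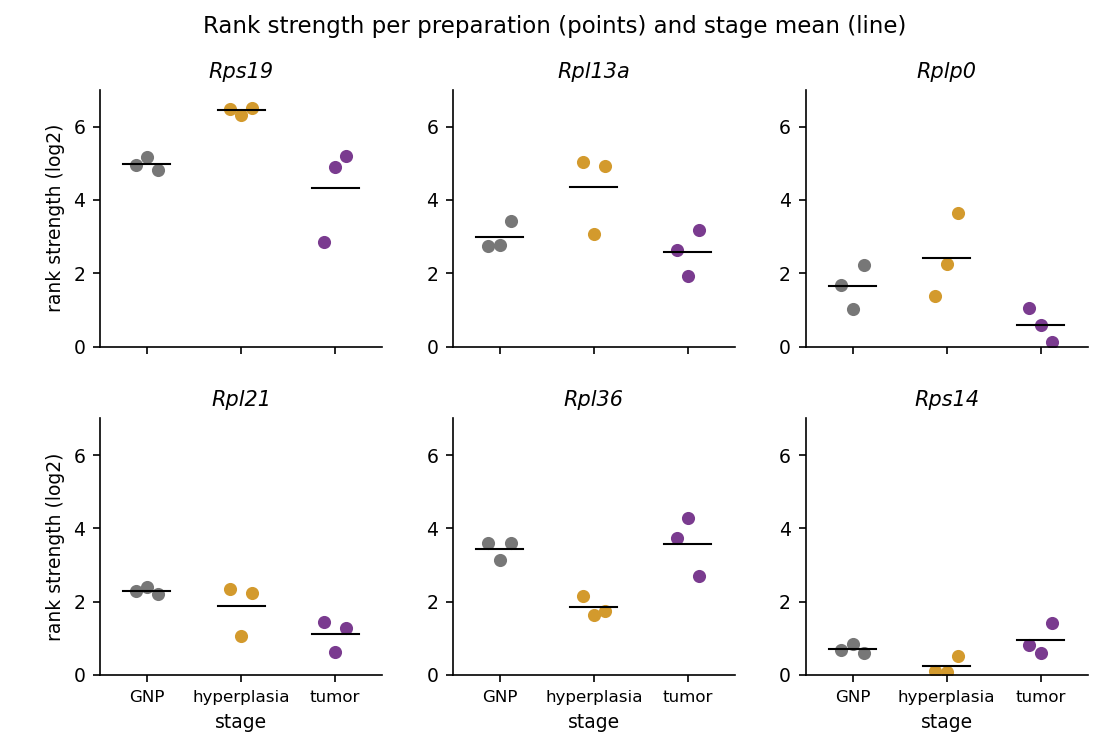
Rank strength (log2, vertical axis) of 6 members in each preparation (points, mean of the NFIA and NFIB library) with the mean per stage (line). Rps19, Rpl13a and Rplp0 have their highest means in hyperplasia, Rpl36 its lowest, and Rpl21 has its lowest in tumors.

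NFIA and NFIB were compared at these genes with stages together. The share of members with an end summit was 50.2% ± 8.13 in NFIA libraries and 55.0% ± 7.07 in NFIB libraries (SD, n = 9 libraries each), and NFIA was lower in 7 of 9 preparations, by a median difference of −3.45 percentage points. The largest differences were −21.8 in the second hyperplasia preparation, whose NFIA library stood apart, and −16.1 in the second GNP preparation. For all genes the share was 35.0% ± 3.16 in NFIA libraries and 35.4% ± 2.15 in NFIB libraries. There NFIA was lower only in the second preparation of each stage. Per gene, with stage as a term, 0 of 58 members were called in rank strength (background 0%, 440 genes and 4 members at an unadjusted p under 0.05). The interaction of stage and target also called 0 (background 0%, 259 genes and 3 members at an unadjusted p under 0.05).

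Rpl13a was lower in NFIA, with ranks of 924 (best), 5239 (median) and 14456 (worst) in 9 NFIA libraries and 598, 1857 and 4499 in 9 NFIB libraries (difference −1.47, SE 0.48, limma adjusted p = 0.923). Rpl38, which in mice is needed for translation of Hox messages, leaned the other way. It was listed in 6 of 9 libraries of each target, with ranks of 5649, 7902.5 and 16278 in NFIA and 16236, 21758 and 28444 in NFIB (0.87, SE 0.34, limma adjusted p = 0.923). Rps19 and Rpl37 had differences of −0.86 and −0.82 and Rpl30 and Rps29 of 0.63 and 0.47 (limma adjusted p from 0.940 to 0.951). In the 12 libraries whose names carry the same target in title and list, 1 of 58 members was called, Rpl13a (−1.97, limma adjusted p = 0.0317), beside a background of 3.04% of genes. Of those libraries, 6 are the NFIA libraries of the first and the NFIB libraries of the third preparations, in which target and preparation cannot be told apart, and the second preparations hold both targets. In the second preparations Rpl13a ranked 10415 in NFIA and 1857 in NFIB in GNPs, 13864 and 904 in hyperplasia and 14456 and 4327 in tumors, one of these NFIA libraries being the one that stood apart.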

How the data were processed

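CUT&Tag summit lists of 18 libraries were used, 1 per library. Each deposited list gives summit positions with a score that the authors' peak caller wrote as the −log10 p-value of the summit. The submitters' processing notes name Bowtie2, MACS2 and the mm10 build. Versions, the use of a control library and the treatment of reads matching several places are not given in the sources used here. Lists were called per library. The scores depend on depth, which is unknown, so each list was cut to its 30000 highest-scoring summits on the 19 autosomes, with ties broken at random (seed 1), and summits were compared by rank. No interval for counting error can be given. No 2 libraries shared more than 0.537% of their top positions.

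Genes, start sites and promoter sequences came from RefSeq tables of GRCm38.p6, and 66 of 87 members matched the promoter table. End summits per preparation, as log2(summits + 0.5) for 7597 genes with a mean of at least 1, and rank strength, for 8625 genes with an end summit in at least 6 libraries, were fitted by stage with limma 3.58.1 (R 4.3.3; trended variance, Benjamini-Hochberg adjusted p under 0.05 over all genes tested). Of the members, 35 and 29 did not pass these filters. Rank strength was the mean of the NFIA and NFIB library of a preparation. NFIA was compared with NFIB per library with stage as a term. Tables were made with Python 3.11.15, pandas 2.3.3, numpy 2.4.6 and matplotlib 3.10.9. On simulated data of 8625 genes, rank strength shifts of 1 and 2 were found in 5% and 51% of changed genes for tumor against GNP. Smaller differences were thus mostly beyond reach. Among the genes left unchanged there was 1 false call.

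The alternatives were the number of summits, the window, start sites only, the filter, the pseudocount, list length, title date, single targets, a replicate block and leaving out libraries or preparations. The members and lists were chosen with earlier results of these data known. The text names the 6 members with the highest mean rank strength, those with no end summit, members past the threshold, the 3 highest and 3 lowest differences per comparison, and Rpsa and the stalk genes, except for a few genes that are not reported here. Members singled out by position or by absence of overlap were named after their values were seen.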

Additional observations from a re-analysis of the deposited data

Results flagged for a closer look

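The X chromosome was left out of the ranking and the fits, and 4 ribosomal protein genes on it were looked at separately, in data outside the comparisons. A summit within 1 kb of a gene end that scored at least as high as the last autosomal summit kept was present at Rpl10 in 18 libraries, at Rpl39 in 16, at Rpl36a in 15 and at Rps4x in 4. The first 3 encode proteins of the large subunit and Rps4x one of the small subunit. No control library was used here, and the sex of the animals is not given in the labels.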

How the results depend on the processing

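Of 530 values of the named members' differences under the alternatives, 510 kept direction and side of the threshold, 8 were no longer past it, 8 came past it and 4 reversed; the cause was not tested. The reversals were Rps14 with all summits (−0.50 against GNPs, −0.45 against hyperplasia), Rps23 without tumor replicate 3 (tumor against GNP, −0.032 to 1.17 over the preparations left out) and Rpl12 in NFIA libraries only (−0.30). Counts over all genes moved widely. For end summits, hyperplasia against GNP (10 called) gave 2 with all summits, 6 with start sites, 61 with no filter, 3 with list length, 5 with a pseudocount of 2, 27 in NFIA only, 58 in NFIB only and 64 with title date. Tumor against GNP (26) gave 57 with the 15000 highest summits, 120 with all summits, 16 with start sites, 85 with no filter, 14 with list length, 40 without the second hyperplasia NFIA library, 15 with a pseudocount of 2, 41 in NFIA only and 81 in NFIB only. Tumor against hyperplasia (25) gave 44 with the 15000 highest, 0 with all summits, 16 with start sites, 46 with no filter, 14 with a pseudocount of 2, 39 in NFIA only and 55 in NFIB only. For rank strength, hyperplasia against GNP (22) gave 13 with the 15000 highest, 5 with all summits, 4 at 500 bp, 56 at 2 kb, 0 with no filter, 0 in NFIA only, 2 in NFIB only and 42 with title date. Tumor against GNP (59) gave 36, 20, 26 and 122 for the first 4 of these settings, 2 with no filter, 21 with list length, 1 in NFIA only and 5 in NFIB only. Tumor against hyperplasia (51) gave 28, 5, 18 and 78, 0 with no filter, 234 without the second hyperplasia NFIA library, 0 in NFIA only and 0 in NFIB only. NFIA against NFIB (0) gave 266 where the names carry the same target, and the interaction (0) gave 1 with no filter.

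Leaving out 1 preparation gave 19 to 51, 31 to 81 and 29 to 64 end summit calls, with the 3 stage comparisons in the order used so far, and 3 to 34, 19 to 61 and 8 to 115 in rank strength. It gave 0 to 0 for NFIA against NFIB and 0 to 1 for the interaction, and of the members 0 to 2, 1 to 2 and 1 to 3 in end summits and 0 to 1 in rank strength. The share of members ranged over 52.0 to 56.6% in GNPs, 52.9 to 59.8% in hyperplasia and 46.0 to 48.3% in tumors. That share was 30.1, 32.8 and 23.4% in GNPs, hyperplasia and tumors with the 15000 highest summits and 81.6, 82.6 and 77.6% with all. It was 60.0% in GNPs and 52.7% in tumors at 2 kb, and 44.8% in tumors at 500 bp.

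Preparation numbers were not taken as pairs in the main fits, since the correlation of same-numbered deviations was not over 0.1 in every pair. It was 0.145 to 0.320 in pairs numbered 1 or 3 and below 0.1 in those numbered 2. Pairs of a number 1 with a number 3 were all negative. Deviations from a shared stage mean are not independent, so that these signs follow in part from the other pairs. Not every preparation correlated best with its own number, and whether the numbers mark shared handling was not tested. With a replicate block, end summit calls were 4, 13 and 9 in the same order and rank strength calls 137, 218 and 374, the last among 8625 genes and with 4 of 58 members (Rps19, Rplp0, Rpl13a and Rpl36), and Rps14 was not called (limma adjusted p = 0.0879 and 0.0996).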

Other observations

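Rps19bp1, the 1 gene of the list that does not encode a ribosomal protein, had an end summit in 3 libraries, all of hyperplasia, at a median rank of 26596. This was 1 of the 2 libraries of each hyperplasia preparation (50%), against 0% of the tumor libraries and 0% of the GNP libraries. These ranks were close to the last one kept, and with all summits it was listed in 13 of 18 libraries. It was listed too rarely for the tests with the filter on low values. Without that filter its end summits were called for hyperplasia against GNP and for tumor against hyperplasia, beside 61 and 46 calls among 12181 genes. The number of libraries listing it did not vary within a stage, and the calls rest on 1 library per hyperplasia preparation.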
